A study of Arabidopsis thaliana with 27 samples.

Results

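The JASMONATE ZIM-DOMAIN (JAZ) repressor family was followed through 27 RNA-seq libraries of Arabidopsis thaliana protoplasts, as the rows of the count files for JAZ1 to JAZ10. All 10 members were found among the 33602 genes of each file. They are JAZ1 (AT1G19180), JAZ2 (AT1G74950), JAZ3 (AT3G17860), JAZ4 (AT1G48500), JAZ5 (AT1G17380), JAZ6 (AT1G72450), JAZ7 (AT2G34600), JAZ8 (AT1G30135), JAZ9 (AT1G70700) and JAZ10 (AT5G13220). The study fluorescence-activated cell (FAC) sorted first true leaf protoplasts of plants aged 17 d to describe the palisade, the upper photosynthetic layer of the leaf. With total root protoplasts of plants of the same age, there were 3 libraries in each of 9 groups. In the IQD22pro::GUS-mCit line, which accumulates a fluorescent fusion protein in the palisade under an IQD22 promoter element, chlorophyll-containing cells with the reporter were the palisade population and those without it the reference population. Both were sorted without transcription inhibitors, with inhibitors (actinomycin D and cordycepin in the protoplasting solution), and with inhibitors after plants kept at 50 uE m-2 s-1 (low light) had spent 2 h at 300 uE m-2 s-1 (high light). In JR11-2, a GAL4-VP16 enhancer trap introgressed into Col-0 with GFP highest in the lower spongy mesophyll, the labels give the GFP-negative cells as palisade and the GFP-positive cells as reference, and both were sorted without inhibitors in low light. Total root protoplasts of Col-0 in low light without inhibitors were the ninth group. Each leaf replicate was a pool of protoplasts of many leaves, palisade and reference cells with 1 pairing letter came from the same pool, and every library, root included, had passed through cell wall digestion; no intact leaf was analysed here.

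JAZ proteins are the repressors at the centre of jasmonate signalling. At rest they bind MYC2 and related transcription factors and recruit the co-repressor TOPLESS, directly or through the adaptor NINJA. When jasmonoyl-isoleucine (JA-Ile) forms after wounding or attack, it joins JAZ proteins to the F-box protein COI1, the JAZ proteins are degraded, and the MYC factors are freed. Most JAZ genes are themselves early targets of this pathway, so that new repressor is made within a short time of the signal. JAZ8 lacks the canonical degron and resists degradation, JAZ10 is known for splice forms that do the same, and JAZ7 has a divergent degron.

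MYC factors bind the G-box, CACGTG, and the stretches that carry it upstream of the JAZ genes are shown as a description. The part of this motif in the values that follow was not tested. The 300 bases before each annotated gene start were read from the TAIR10.1 genome (RefSeq) and searched for CACGTG, which is its own reverse complement. It was found before 4 of the 10 members, against 7.09% of 27443 protein-coding nuclear genes. JAZ1, JAZ4, JAZ5, JAZ6, JAZ9 and JAZ10 did not hold it in this window. JAZ2 held it on the minus strand in chr1:28150480-28150539, beginning 66 bases before the gene. JAZ3 held 2 copies on the plus strand, in chr3:6119540-6119599 and chr3:6119598-6119657, beginning 140 and 82 bases before the gene. JAZ7 held it in chr2:14572969-14573028 and JAZ8 in chr1:10596292-10596351, both on the plus strand, beginning 34 and 10 bases before the gene. Each stretch is written 5′ to 3′ on the strand of its gene with the G-box in capitals.
JAZ2: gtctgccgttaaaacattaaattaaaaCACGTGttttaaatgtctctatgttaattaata
JAZ3, farther copy: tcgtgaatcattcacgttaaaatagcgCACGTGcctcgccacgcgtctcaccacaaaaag
JAZ3, nearer copy: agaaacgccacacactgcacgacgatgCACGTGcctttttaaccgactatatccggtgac
JAZ7: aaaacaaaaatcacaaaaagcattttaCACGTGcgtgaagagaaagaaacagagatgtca
JAZ8: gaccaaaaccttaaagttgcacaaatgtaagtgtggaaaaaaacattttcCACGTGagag

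The variant CACATG, or CATGTG on the other strand, stood before JAZ9 and JAZ10, 2 of 10 members, against 13.1% of genes. GCCGCC, the GCC-box of ERF factors, was searched on both strands and found before 0 of 10 members, against 2.26% of genes. TTGACC or TTGACT, the W-box core of WRKY factors, was searched on both strands and found before JAZ1, JAZ4 and JAZ8, 3 of 10 members, against 32.3% of genes. JAZ5 and JAZ6 held none of these letters in this window. A match in so short a window is a description and not a binding site. The members are distinct enough to be counted apart: none of the 50-base stretches in the exons of any of the 10 genes recurs elsewhere in the genome. JAZ10 alone overlaps another annotated gene, AT5G02045 on the opposite strand, by 71 bases.

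Libraries held 15074702 to 38792923 counts over genes. Levels are given as normalised read counts in CPM on 1 TMM scale for all 27 libraries, on which a floor of 3 counts is 0.0476 to 0.227 CPM, and as CPM per kb of exon where members are compared with each other. In bulk sorted samples, fewer cells of a type and less RNA per cell cannot be told apart. IQD22, the gene behind the reporter, was called higher in palisade in all 3 comparisons of its line, with log2 fold changes of 1.07 without inhibitors (86.9 to 134.5 against 44.7 to 62.9 CPM), 1.99 with inhibitors in low light (44.7 to 52.5 against 10.5 to 12.2 CPM) and 1.43 after high light (43.1 to 48.2 against 13.9 to 20.4 CPM). IQD22 was itself called higher without than with inhibitors, 2.39-fold in palisade and 4.55-fold in reference. In JR11-2 it was higher in GFP-negative cells at less than 2-fold, with a log2 fold change of 0.31 (edgeR FDR 0.0010). The abaxial and spongy markers YAB5 and CORI3 summed to 6.73 to 16.7 CPM in palisade and 569 to 644 CPM in reference libraries with inhibitors in low light. In those reference libraries CORI3, also on the list of late jasmonate outputs used below, averaged 584 CPM and YAB5 17.6 CPM. Each was called lower in palisade. In JR11-2 CORI3 was called lower in GFP-negative cells (log2 fold change -1.41). YAB5 was higher there at less than 2-fold (0.48, edgeR FDR 0.0082). The root markers CASP1, SCR, SHR and WER summed to 120 to 214 CPM in root libraries and at most 55.9 CPM in any leaf library. CASP1 and WER averaged 122 and 15.03 CPM in root and at most 0.035 CPM in any leaf group. SCR was not called between root and palisade or reference without inhibitors (log2 fold changes 0.23 and 0.33). It averaged 22.03 CPM in root and 42.07 CPM in palisade after high light. SHR averaged 13.21 CPM in root, and 6.25 CPM in reference and 0.11 CPM in palisade without inhibitors. The photosynthetic markers CAB3 and RBCS2B summed to 1.06 to 1.75 CPM in root.

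The JAZ transcript total differed between leaf libraries made without and with inhibitors, and between low and high light. Summed over the 10 members, it was 1806 to 2758 CPM, with a median of 2395 CPM, in the 12 leaf libraries made without inhibitors. It was 262 to 313 CPM, with a median of 276 CPM, in the 6 libraries made with inhibitors in low light, and 848 to 1083 CPM, with a median of 952 CPM, in the 6 made with inhibitors after high light. The 3 root libraries, made without inhibitors, stood at 760, 1068 and 593 CPM. The leaf libraries of these 3 kinds did not overlap, while the root libraries overlapped those made after high light.

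**Figure D1:**
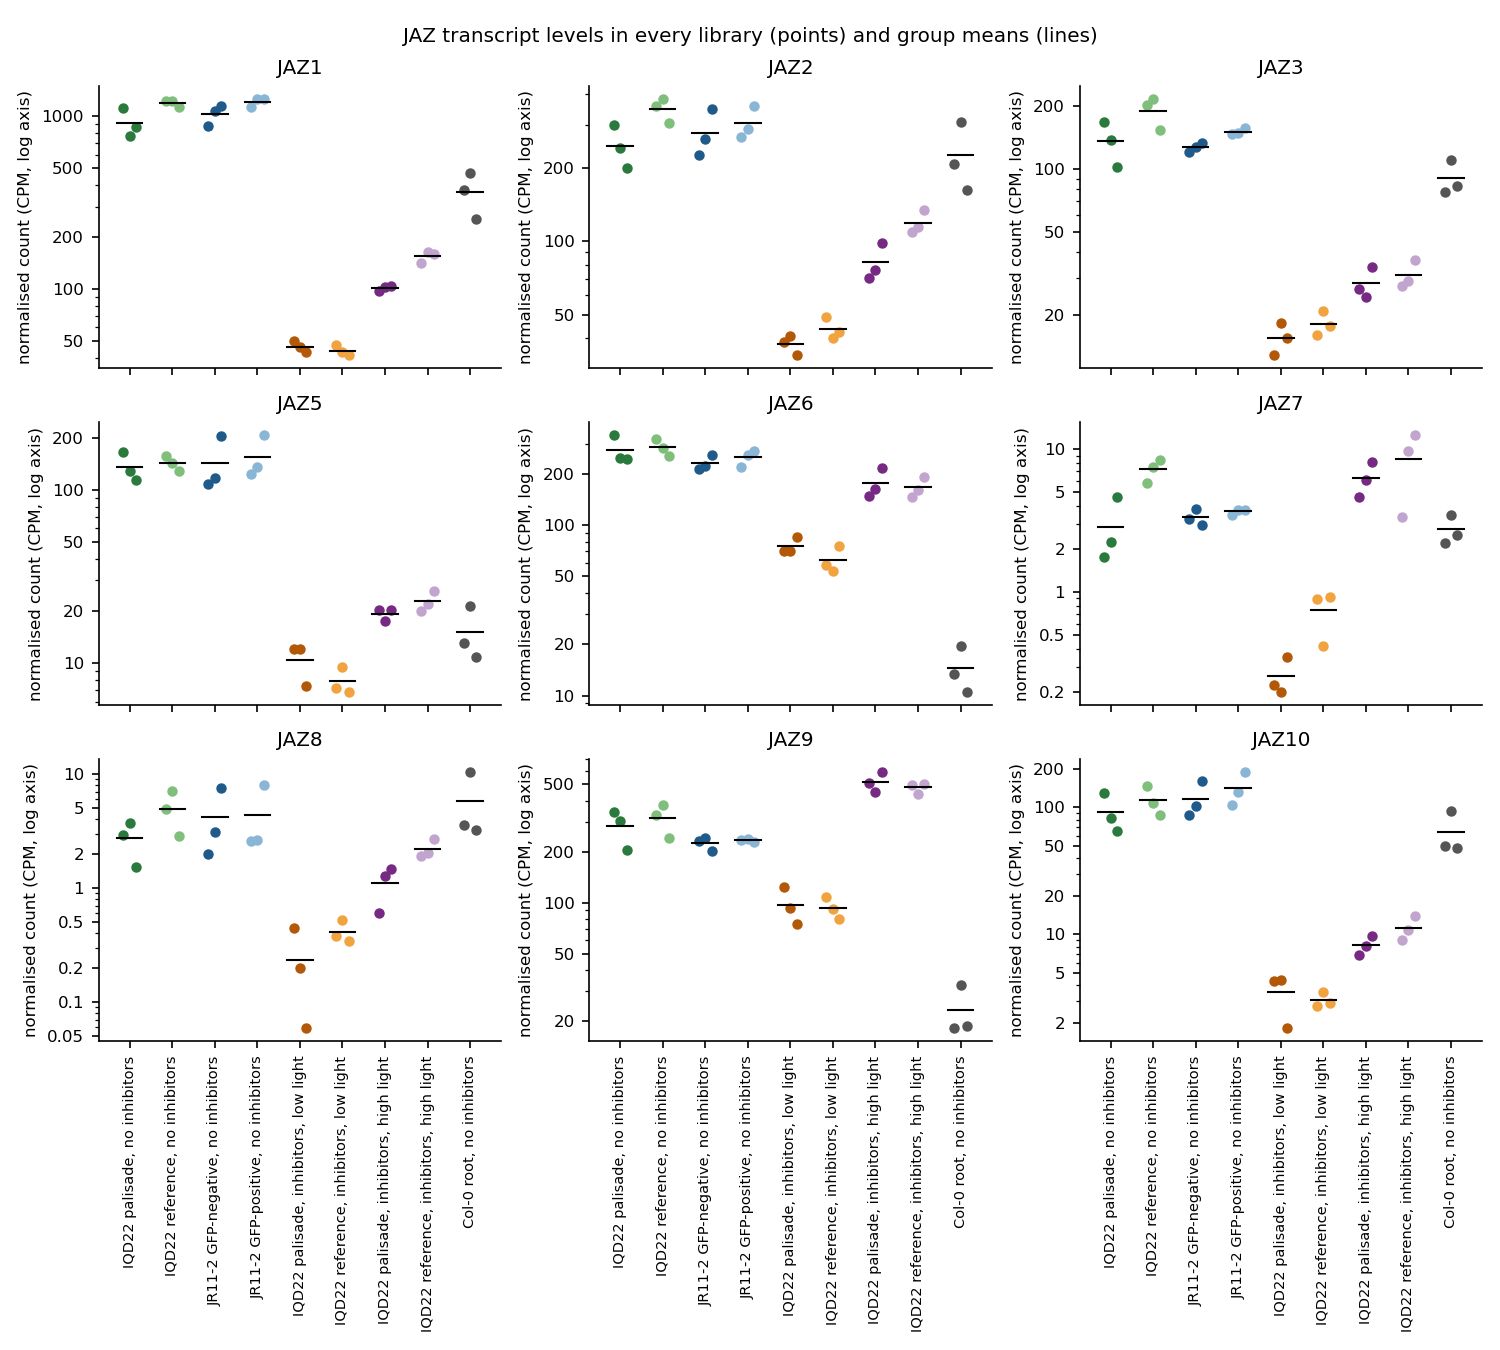
Normalised read count (CPM, log axis) of 9 JAZ members in each library (points) of the 9 groups along the horizontal axis, with the group mean as a line. JAZ4 is left out because it had no read in any of the 24 leaf libraries; for every member drawn, the libraries made with inhibitors in low light lie below all leaf libraries made without inhibitors.

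Which member made up most of the family also differed. Per kb of exon, JAZ1 was the most abundant member in all 4 leaf groups without inhibitors, at 510 ± 98.0 CPM per kb (SD, n = 3) in palisade and 665 ± 28.8 CPM per kb in reference cells. JAZ2 followed at 179 ± 36.0 CPM per kb in palisade, where its libraries overlapped those of JAZ9, and at 254 ± 29.5 CPM per kb in reference, where they did not. JAZ9, at 52.3 ± 13.3 CPM per kb in palisade and 50.1 ± 7.66 CPM per kb in reference, was the most abundant member with inhibitors in low light, and no library of the next member reached it in either population. After high light JAZ9 stood at 279 ± 38.6 CPM per kb in palisade and 258 ± 18.5 CPM per kb in reference, again clear of all others. JAZ7 and JAZ8 were the lowest of the detected members in every leaf group made without inhibitors or with inhibitors in low light, and their libraries overlapped each other in each of those groups.

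Expressed as a share of the family per exon length, JAZ1 took 41.4 to 52.2% in the leaf libraries without inhibitors, 15.9 to 17.1% with inhibitors in low light and 9.82 to 17.4% with inhibitors after high light. JAZ9 took 8.10 to 15.8%, 29.0 to 39.5% and 45.0 to 57.5% in the same 3 sets of libraries, so that its share did not overlap between any of them. JAZ10 took 3.03 to 5.92% without inhibitors and at most 1.30% with them. In root the share of JAZ1 was 41.6 to 47.5% and that of JAZ2 34.3 to 36.0%, while JAZ9 held 2.23 to 2.99%.

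**Figure D2:**
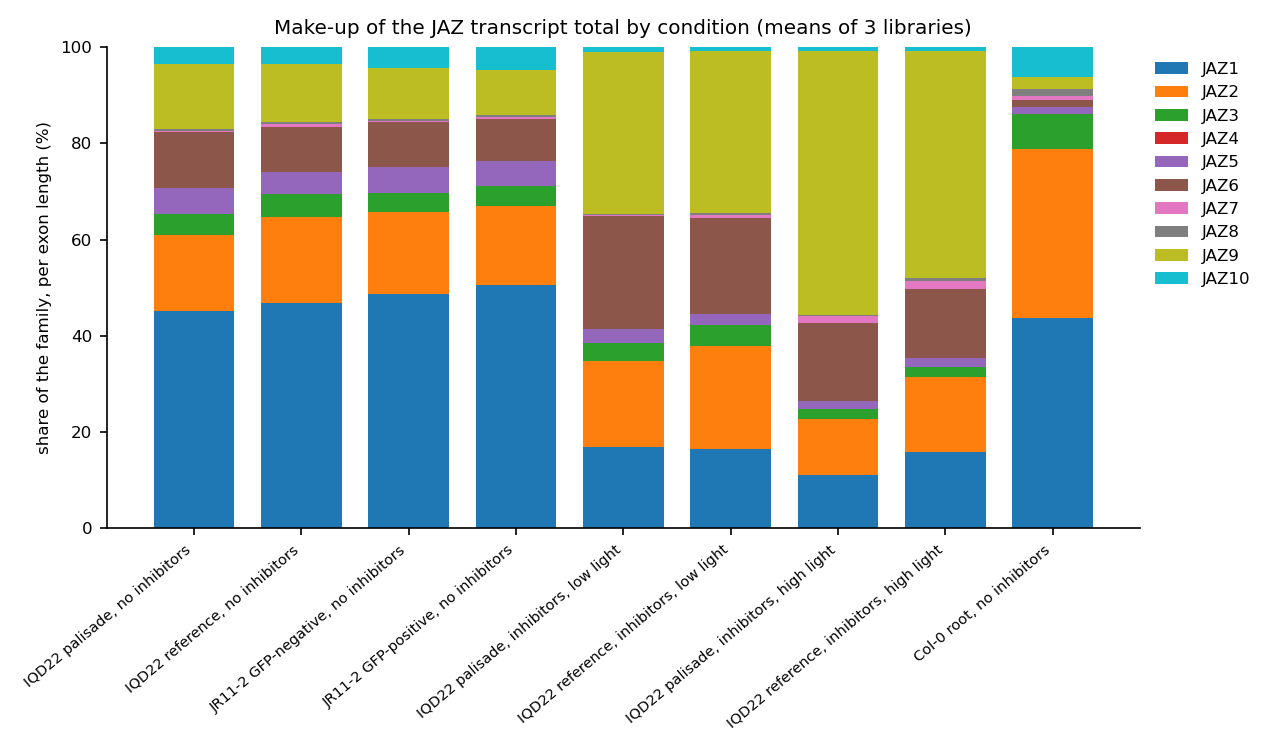
Mean share of each JAZ member in the family total (percent, after division by exon length; 3 libraries a bar) for the 9 groups along the horizontal axis. JAZ1 leads in every bar without inhibitors, with mean shares of 43.7 to 50.6%, and JAZ9 in every bar with inhibitors, with 33.6 to 54.9%.

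Inhibitors were added by the study to limit transcription during protoplasting, and the first comparison asked how the family differed between cells digested without and with them. Every tested member was higher without inhibitors, in both cell populations. JAZ1, the most abundant member and an early jasmonate target, had 1117, 775 and 868 CPM in the 3 palisade libraries without inhibitors and 50.2, 46.2 and 43.0 CPM in those with inhibitors. In the reference population it had 1226, 1232 and 1139 CPM without and 47.6, 43.0 and 41.3 CPM with inhibitors. The lowest library without inhibitors thus stood far above the highest with them. Its fold-difference was 20.7 in palisade (log2 fold change 4.37 ± 0.21 SE, edgeR FDR 2.2e-07) and 26.8 in reference (4.74 ± 0.15, FDR 3.6e-09).

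JAZ10, a repressor that dampens the jasmonate response, changed the most. It had 130, 82.2 and 65.7 CPM in palisade libraries without inhibitors against 4.31, 4.40 and 1.82 CPM with them. In reference libraries it had 148, 109 and 86.7 CPM against 2.71, 3.54 and 2.86 CPM. The groups did not overlap, and the fold-difference was 28.0 in palisade (log2 fold change 4.81 ± 0.36 SE, edgeR FDR 1.8e-06) and 37.3 in reference (5.22 ± 0.24, FDR 2.2e-08).

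JAZ9 and JAZ6 changed the least. JAZ9, an interactor of MYC2, had 340, 305 and 206 CPM in palisade without inhibitors and 124, 92.4 and 74.9 CPM with them, a log2 fold change of 1.62 ± 0.22 SE (edgeR FDR 0.00021). JAZ6 had 336, 248 and 245 CPM without and 70.9, 70.3 and 85.2 CPM with inhibitors, a log2 fold change of 1.93 ± 0.19 (edgeR FDR 1.3e-05). Both kept their groups apart in palisade, and in reference cells their log2 fold changes were 1.74 and 2.17 with no overlap either.

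The 2 scarcest members moved on small counts. JAZ7 had 36, 42 and 105 reads in the palisade libraries without inhibitors and 3, 3 and 6 with them. The ratio of its summed normalised counts was 11.2, with a 95% exact interval of 6.25 to 22.1 that covers counting error only. JAZ8, the member that resists JA-Ile-driven degradation, had 60, 70 and 35 reads without and 6, 3 and 1 with inhibitors, a ratio of 12.1 (6.42 to 25.7). The libraries of each did not overlap, and both members passed the test in both populations.

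All 9 members tested were called higher without inhibitors in palisade, where 19.1% of 19128 genes were called in this direction, and all 9 in reference, where 20.9% of 19755 genes were. A call needs an edgeR false discovery rate (FDR) under 0.05 and a fold-difference over 2. The members' median log2 fold change was 3.48 in palisade and 3.37 in reference, beside medians over all genes of 0.03 and -0.04. The remaining members, JAZ2, JAZ3 and JAZ5, had log2 fold changes of 2.76, 3.19 and 3.77 in palisade and 2.97, 3.37 and 4.16 in reference. JAZ4 was not tested because none of its leaf libraries held a read. The 9 calls held in every leave-one-out fit. Upper-quartile scaling moved the median of all genes to -0.27 in palisade and -0.30 in reference, and the share of higher calls among all calls from 95.6% to 76.4% and from 94.7% to 75.3%, with all 9 members still called. The inhibitor and no-inhibitor libraries came from different pools, so that any difference between those pools cannot be told apart from the inhibitors. The sum of the 4 epidermis and guard cell markers was lower without inhibitors, with no overlap, at 5.45 to 13.8 CPM without and 23.6 to 109 CPM with inhibitors in palisade, and to 52.9 to 118 and 138 to 216 CPM in reference. It rested on TGG1, a myrosinase gene, which was called lower in both populations (log2 fold changes -2.64 and -1.18), while CER6 had -0.17 and -0.29 and was not called. The part of these cells in the result was not tested.

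**Figure D3:**
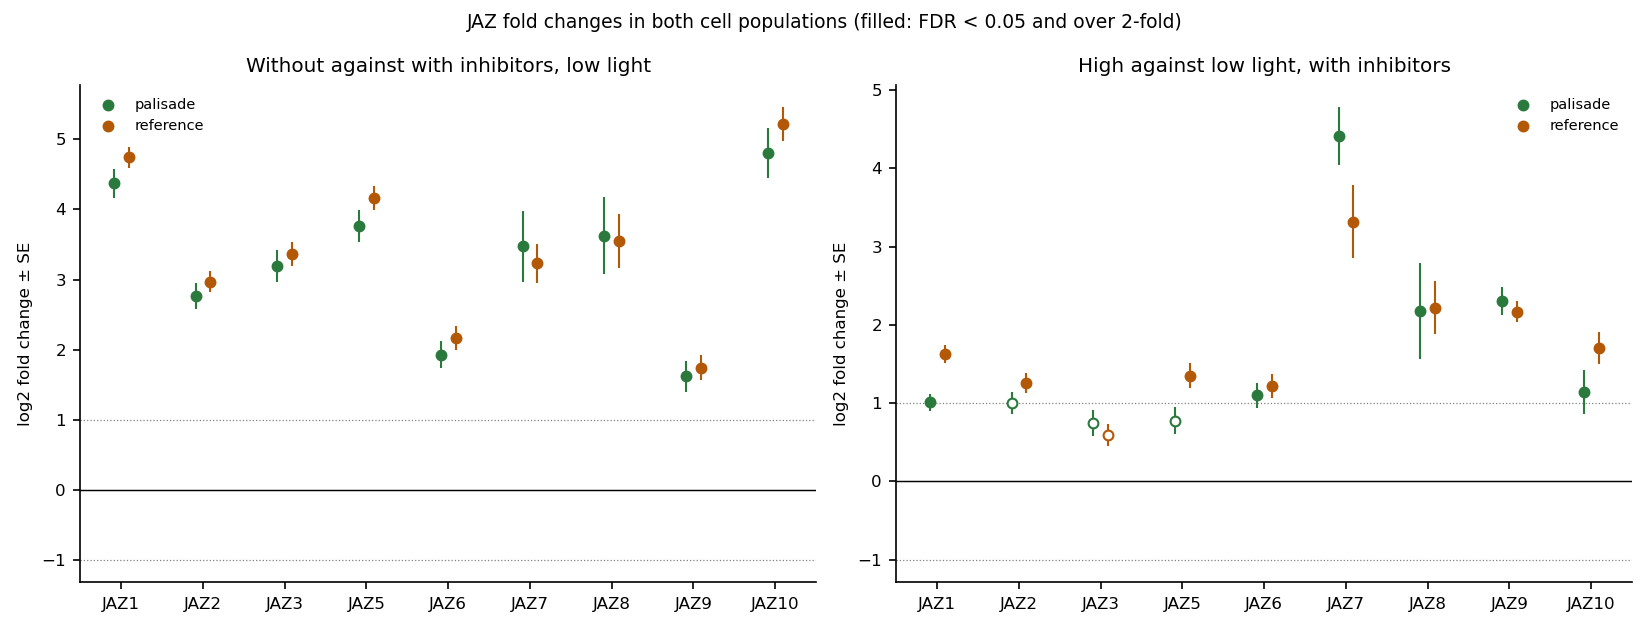
Log2 fold changes (points, ± SE) of 9 JAZ members in palisade and reference cells, without against with inhibitors in low light (left) and high against low light with inhibitors (right); filled points passed FDR < 0.05 and a fold-difference over 2. On the left all 18 points are filled, from 1.62 to 5.22, and on the right JAZ7 stands highest in both populations, at 4.41 and 3.32.

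The difference made by inhibitors was not called unequal between the populations for any member. The interaction of inhibitor and population, over 12 libraries with the pool as a block, passed FDR 0.05 for 0 of 9 members, while 3.36% of 19320 genes passed it. At an unadjusted p under 0.05 there were 2 members, JAZ1 and JAZ5, with interaction values of -0.36 ± 0.13 SE and -0.37 ± 0.15 on the log2 scale, negative meaning less difference in palisade. DESeq2 called JAZ1 alone, with -0.47 and an adjusted p of 0.037. Leaving out the libraries numbered 1 brought the number to 4 (JAZ1, JAZ2, JAZ3 and JAZ6).

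The rest of the jasmonate pathway was read from lists chosen with earlier results of these data known. Of 13 genes of jasmonate synthesis, 11 were called higher without inhibitors and 0 lower in both populations, with medians of 4.14 and 4.10 on the log2 scale. LOX3, a lipoxygenase of the first step, rose from 109 ± 19.2 to 5849 ± 1359 CPM in palisade (SD, n = 3; log2 fold change 5.81 ± 0.28 SE), LOX4 by 5.62 and the allene oxide cyclase gene AOC3 by 5.14 on that scale. Of 9 tested genes of JA-Ile turnover, 8 were called higher in palisade and all 9 in reference, with medians of 5.52 and 6.01. CYP94B3, which hydroxylates JA-Ile, rose from 1.97 ± 0.39 to 268 ± 119 CPM in palisade, a log2 fold change of 7.15 ± 0.38, its relative CYP94B1 by 6.64 and the jasmonate oxidase gene JOX4 by 6.22. These enzymes make and remove the signal that JAZ proteins sense.

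The partners of the JAZ proteins did not follow as a group. Of 9 genes for the JA-Ile receptor complex and the co-repressors, 0 were called in either population by edgeR, with medians of -0.22 and -0.29, while 5 in palisade and 6 in reference had an unadjusted p under 0.05, and ASK2, NINJA and HDA19 passed FDR 0.05 in palisade at less than 2-fold. COI1, the receptor, had 23.1 ± 3.01 CPM without and 28.1 ± 5.36 CPM with inhibitors in palisade (log2 fold change -0.22 ± 0.16, FDR 0.30). NINJA, the adaptor, had 29.7 ± 3.19 and 45.4 ± 1.99 CPM (-0.55 ± 0.14, FDR 0.010). Of the JAZ-bound transcription factors 3 were called higher in both populations, of 6 tested in palisade and 8 in reference: MYC2, the main activator, by 2.05 and 2.87 on the log2 scale, and the repressing bHLH factors JAM1, by 1.00 and 1.42, and JAM2, by 2.62 and 2.83. MYC3 and MYC4, close relatives of MYC2, had log2 fold changes of 0.01 and -0.15 in palisade.

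Outside JAZ1 to JAZ10, 1 of 6 other ZIM-domain genes was called higher in each population. It was JAZ13, a divergent JAZ gene, at 0.49 ± 0.16 CPM without inhibitors in palisade and without a read in the 3 palisade libraries with them. JAZ13 thus met the count filter in palisade through the libraries without inhibitors alone, so its call there is not read as a result. Its level in reference cells was 0.57 ± 0.35 CPM without and 0.03 ± 0.03 CPM with inhibitors. JAZ12 passed FDR 0.05 at 0.86 on the log2 scale in palisade, and JAZ11 had -0.22 with FDR 0.43. Late jasmonate outputs were mixed: of 5 tested, 1 was called higher in palisade (VSP1, a storage protein gene with 0.30 ± 0.16 CPM without and 0.02 ± 0.03 CPM with inhibitors), and 1 higher and 1 lower in reference. VSP1 lay below the floor of 3 counts in palisade with inhibitors. It met the count filter there through the libraries without inhibitors alone, so its call is not read as a result. Of 9 early wound and stress genes, 8 were called higher in palisade and all 9 in reference, led in palisade by WRKY40 (4.21), WRKY33 (3.49) and ZAT12 (3.32), transcription factors of rapid stress responses. In the interaction of inhibitor and population all 9 of these passed FDR 0.05 with less difference in palisade. So did 3 of 13 synthesis genes and MYC2 (-0.77 ± 0.11 SE, edgeR FDR 0.00028). Of the turnover and receptor genes 0 of 9 passed in each list, and 1 of 5 late outputs passed in the other direction.

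**Figure D4:**
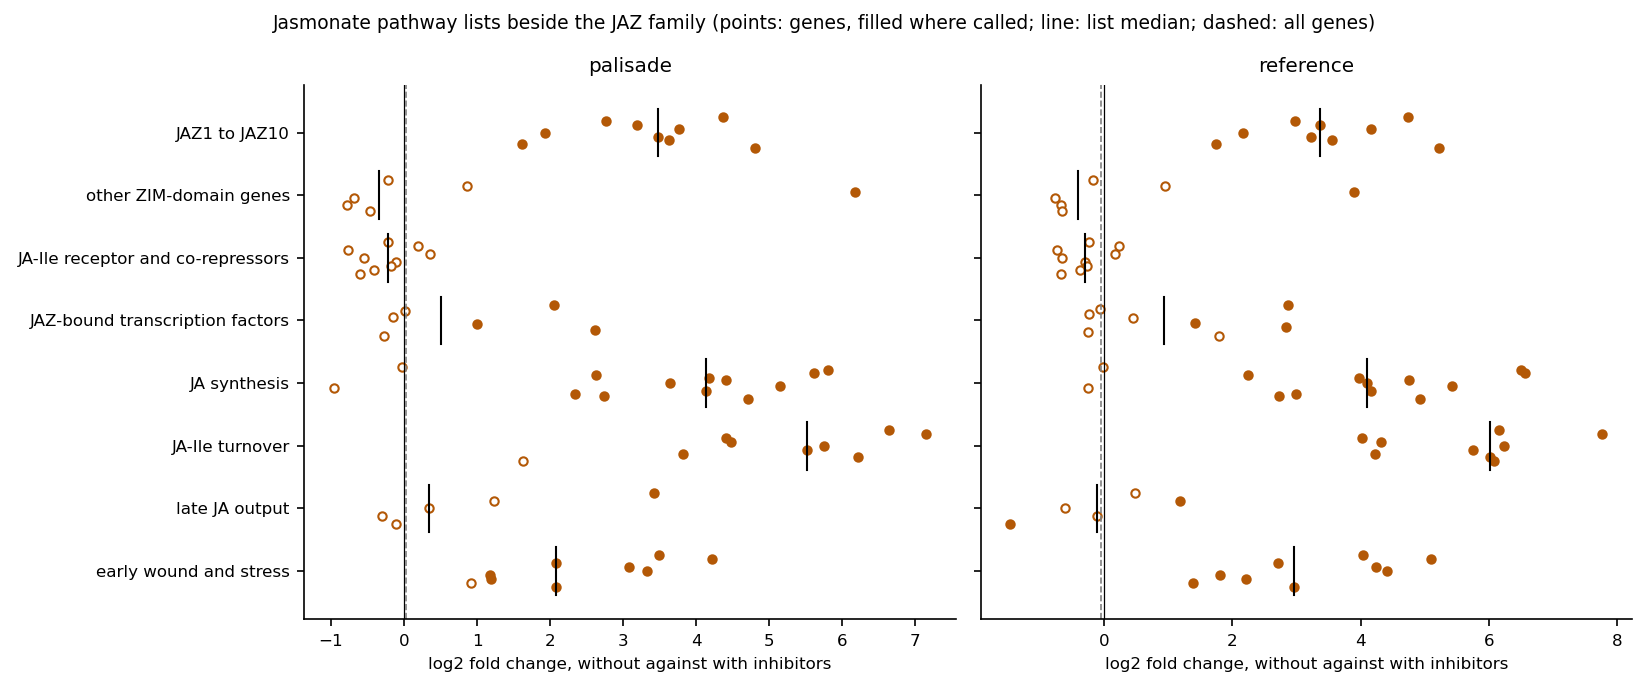
Log2 fold changes without against with inhibitors (horizontal axis) of the genes tested in the JAZ family and in 7 lists, in palisade (left) and reference cells (right); filled points passed FDR < 0.05 and a fold-difference over 2, the short line is the list median and the dashed line the median of all genes. The family median, 3.48 in palisade, lies between those of the wound list, 2.09, and of jasmonate synthesis, 4.14, and the receptor list lies at -0.22; the point of JAZ13 in palisade is a fitted value against libraries without a read.

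High light was compared with low light in cells digested with inhibitors. The high light was given to plants in the 2 h before digestion, and changes during digestion were not measured apart from it. All 9 members tested were higher after high light in both populations at FDR 0.05, where 19.2% of 18600 genes in palisade and 21.8% of 19353 genes in reference were. Those past a 2-fold difference were 6 in palisade, against 8.07% of genes, and 8 in reference, against 10.1%. The members' median log2 fold change was 1.10 in palisade and 1.63 in reference, beside medians over all genes of -0.01 and -0.02. Upper-quartile scaling moved those medians over all genes to -0.12 in both, and the share of higher calls in palisade from 61.0% to 50.6%. The low and high light libraries came from different pools, so that any difference between those pools cannot be told apart from light. In palisade JAZ1, JAZ2, JAZ6 and JAZ10 lay close to the 2-fold limit: the calls numbered 3 without low light palisade replicate 3 and 2 without high light palisade replicate 3, while 8 members kept FDR under 0.05 in each case.

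JAZ7, a member known for a role in dark-induced senescence, changed the most with light. It had 0.22, 0.20 and 0.35 CPM in the low light palisade libraries and 4.62, 6.04 and 8.07 CPM after high light. In reference it had 0.89, 0.42 and 0.92 CPM in low light and 3.35, 9.75 and 12.5 CPM after high light. Neither pair of groups overlapped, although the reference libraries after high light differed among themselves more than 3-fold. The log2 fold change was 4.41 ± 0.37 SE in palisade (edgeR FDR 3.4e-06) and 3.32 ± 0.47 in reference (FDR 0.00018). From summed counts of 272 and 12 reads, the palisade ratio was 23.7 with a 95% exact interval of 13.4 to 46.5 for counting error.

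JAZ9 combined the highest level with a large response. Its palisade libraries held 124, 92.4 and 74.9 CPM in low light and 510, 450 and 592 CPM after high light, and its reference libraries 108, 91.1 and 79.7 CPM and 493, 439 and 503 CPM. The fold-difference was 4.95 in palisade (log2 fold change 2.31 ± 0.18 SE, edgeR FDR 1.7e-06) and 4.50 in reference (2.17 ± 0.13, FDR 3.4e-07). All 6 high light libraries of JAZ9 also lay above all 12 leaf libraries without inhibitors, which reached 375 CPM. No other detected member apart from JAZ7 had its highest group mean after high light.

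JAZ8 had 0.45, 0.20 and 0.06 CPM in low light palisade libraries and 0.61, 1.27 and 1.46 CPM after high light. Its log2 fold change was 2.18 ± 0.61 SE (edgeR FDR 0.015), resting on 10 reads in low light, and its FDR was 0.052 to 0.056 when replicate 2 or 3 of either light level was left out. In reference, where the test was called with each library left out, it was 2.22 ± 0.34 (FDR 0.00032). JAZ6 rose by 1.10 and 1.22 and JAZ10 by 1.14 and 1.70 on the log2 scale in palisade and reference. JAZ3, a MYC2 interactor, had the smallest values, 0.75 and 0.59.

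JAZ1 answered high light less in palisade than in reference. Its palisade libraries held 50.2, 46.2 and 43.0 CPM in low light and 97.1, 103 and 104 CPM after high light, against 47.6, 43.0 and 41.3 CPM and 142, 165 and 160 CPM in reference. The low light libraries of the populations overlapped and the high light libraries did not. The log2 fold change was 1.01 ± 0.11 SE in palisade and 1.63 ± 0.11 in reference, and the interaction, palisade minus reference with the pool as a block, was -0.65 ± 0.10 (edgeR FDR 0.00038). JAZ5 had 0.78 ± 0.17 and 1.35 ± 0.16 and an interaction of -0.59 ± 0.16 (FDR 0.036). They were 2 of 9 members that passed, where 5.15% of 18855 genes did. JAZ7, with an interaction of 1.14 ± 0.52 (FDR 0.27), and the other 6 members did not pass. The call on JAZ5 was lost under DESeq2 and without the libraries numbered 2 or 3, and without the pool as a block both were lost (JAZ1 at FDR 0.12, JAZ5 at 0.54).

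Among the lists, 4 of 13 synthesis genes were called higher after high light in palisade and 7 in reference, with medians of 0.75 and 1.30 on the log2 scale, and 0 lower. Of the turnover genes, 6 of 8 tested were called higher in palisade and 6 of 9 in reference. LOX4 rose in reference alone past 2-fold, with log2 fold changes of 0.62 in palisade and 1.75 in reference, and MYC2 likewise, with 0.52 and 1.14. The light effect was smaller in palisade by test for both, with an interaction of -1.16 ± 0.12 SE for LOX4 (edgeR FDR 6.4e-06) and -0.64 ± 0.11 for MYC2 (FDR 0.00083). Of the JAZ-bound transcription factors, 0 of 7 tested were called higher and 1 lower in palisade, and 2 of 8 higher and 1 lower in reference. The lower one was MYC4 in both, at -1.79 and -1.46 on the log2 scale (edgeR FDR 0.0011 and 0.00034). VSP1 rose from 0.02 ± 0.03 to 1.96 ± 0.86 CPM in palisade and from 0.15 ± 0.13 to 3.48 ± 0.52 CPM in reference, 1 of 4 late outputs called higher of 5 tested in each population. In low light palisade it lay below the floor of 3 counts, and it met the count filter there through the high light libraries alone. Of the 9 receptor and co-repressor genes edgeR again called 0 in both, with 5 at an unadjusted p under 0.05 in each.

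Palisade and reference cells were then compared within pools. Log2 fold changes ran from -1.61 to 0.27 over the members and the 3 settings of the IQD22 line, and where a member passed FDR 0.05 it was lower in palisade. Without inhibitors 6 of 9 members, JAZ1, JAZ2, JAZ3, JAZ7, JAZ8 and JAZ10, were lower in palisade at FDR 0.05, where 17.3% of 19912 genes were, and each was lower in 3 of 3 pools. Without the pool as a block, or with all 27 libraries in 1 fit, 1 member passed FDR 0.05. Only JAZ7 passed 2-fold as well, against 6.7% of genes. JAZ7 had 1.77, 2.23 and 4.61 CPM in palisade and 5.83, 7.49 and 8.47 CPM in reference libraries. The populations did not overlap, and the log2 fold change was -1.40 ± 0.18 SE (edgeR FDR 9.2e-06). JAZ8 was next, at -0.90 ± 0.16 (FDR 0.00031), with overlapping libraries of 2.94, 3.72 and 1.54 CPM in palisade and 4.97, 7.09 and 2.88 CPM in reference.

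With inhibitors in low light 3 of 9 members were lower in palisade at FDR 0.05, where 15% of 18963 genes were. JAZ7 was again the member past 2-fold, against 5.56% of genes, at -1.61 ± 0.54 SE (edgeR FDR 0.029), with the 3, 3 and 6 reads of its palisade libraries against 21, 8 and 19 in reference. That call was lost under DESeq2 (adjusted p 0.21), without the block (FDR 0.063) and without the libraries numbered 1 (0.16) or 3 (0.14). JAZ2 and JAZ3 had -0.34 and -0.36 on the log2 scale and were lower in 2 and 3 of 3 pools. With DESeq2, with no block, with all 27 libraries in 1 fit, or without the libraries numbered 3, the members past FDR 0.05 numbered 0 of 9. JAZ5 had 0.27 ± 0.13 with FDR 0.14 and was higher in palisade in 3 of 3 pools.

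With inhibitors after high light 6 of 9 members, JAZ1, JAZ2, JAZ5, JAZ7, JAZ8 and JAZ10, were lower in palisade at FDR 0.05, where 19% of 19072 genes were, and JAZ8 also passed 2-fold, against 6.36% of genes. JAZ8 had 0.61, 1.27 and 1.46 CPM in palisade and 1.91, 2.01 and 2.68 CPM in reference libraries, which did not overlap, and a log2 fold change of -1.03 ± 0.31 SE (edgeR FDR 0.0075). Its call was lost under DESeq2 (adjusted p 0.10), without the block (FDR 0.056) and without the libraries numbered 1 or 3. JAZ1 had -0.68 ± 0.07 (FDR 2.4e-10) and JAZ2 -0.61 ± 0.07 (FDR 5.9e-09), each lower in 3 of 3 pools with no overlap. JAZ5 and JAZ7 were lower in 2 of 3 pools, and their FDR was 0.18 and 0.34 without the libraries numbered 2 and 0.17 and 0.37 without those numbered 3. With DESeq2 or with no block 2 members passed FDR 0.05, and with all 27 libraries in 1 fit 1 did.

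In JR11-2, GFP-negative against GFP-positive cells, edgeR called 0 of 9 members past 2-fold, where 1.44% of 20031 genes were called lower. DESeq2 also called 0, and 6 members had an unadjusted p under 0.05. JAZ1, JAZ3 and JAZ10, 3 of 9 members, passed FDR 0.05 in the lower direction, against 10.1% of genes, with -0.26, -0.27 and -0.31 on the log2 scale, each in 3 of 3 pools, and 0 passed it with no block or with all 27 libraries in 1 fit. JAZ7 had 3.25, 3.84 and 2.95 CPM in GFP-negative and 3.48, 3.77 and 3.77 CPM in GFP-positive libraries, overlapping groups with -0.14 ± 0.16 (FDR 0.65). The difference between the lines was tested after these values were seen. It passed FDR 0.05 for JAZ7 (-1.28 ± 0.25, FDR 0.0012), JAZ8 (-0.85 ± 0.23, FDR 0.014) and JAZ2 (-0.42 ± 0.11, FDR 0.010), 3 of 9 members, where 15% of 19806 genes passed. Without the pool as a block 0 of 9 passed by edgeR. Without the libraries numbered 1 there were 5, and without those numbered 2 or 3 only JAZ7 passed.

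**Figure D5:**
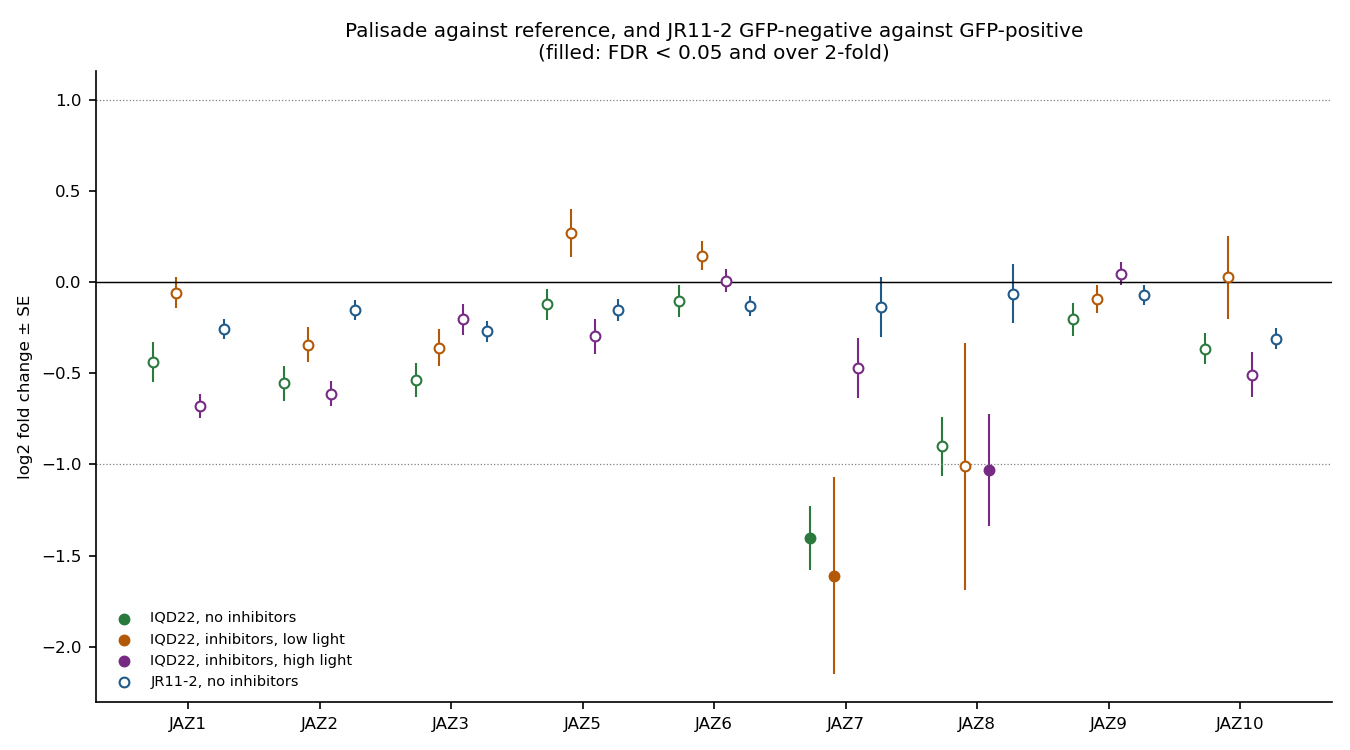
Log2 fold changes (points, ± SE) of 9 JAZ members between cell populations of the same pool: palisade against reference of the IQD22 line in 3 settings, and GFP-negative against GFP-positive cells of JR11-2. Filled points passed FDR < 0.05 and a fold-difference over 2: JAZ7 without inhibitors (-1.40) and with inhibitors in low light (-1.61), and JAZ8 after high light (-1.03).

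Markers of other cell types also differed between palisade and reference in the IQD22 line. The 9 bundle sheath and vein markers summed to 11.4 to 16.1 CPM in palisade and 94.2 to 131 CPM in reference libraries without inhibitors, all 9 lower in palisade and 8 called. With inhibitors in low light the sums were 13.9 to 39.2 and 91.6 to 132 CPM, and after high light 15.9 to 41.7 and 82.9 to 177 CPM. The epidermis and guard cell sums given above for low light did not overlap between palisade and reference with or without inhibitors, and after high light they were 4.77 to 60.9 CPM in palisade and 88.8 to 272.5 CPM in reference; 1 of the 4 markers was at 0 in palisade without inhibitors (FAMA) and after high light (SLAC1). In JR11-2 the vein sums overlapped, at 49.0 to 92.3 CPM in GFP-negative and 52.8 to 71.8 CPM in GFP-positive libraries. Of those 9 markers 2 were called higher in GFP-negative cells and 1 lower. The epidermis and guard cell sums there were 40.2 to 117.6 and 27.2 to 72.5 CPM. The 2 markers tested, CER6 and TGG1, were higher in GFP-negative cells in 3 of 3 pools at less than 2-fold. Their log2 fold changes were 0.999 (edgeR FDR 0.00081) and 0.84 (FDR 2.3e-05). The part of these cells in the differences of JAZ genes was not tested.

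Root protoplasts were compared with the leaf populations made without inhibitors, each sharing the 3 root libraries. JAZ9, JAZ6 and JAZ5 were much lower in root. JAZ6 had 13.4, 19.7 and 10.5 CPM in root against 245 to 336 CPM in palisade, a log2 fold change of -4.28 ± 0.26 SE (edgeR FDR 5.4e-09), and -4.35 ± 0.24 against reference. JAZ9 had 18.1, 32.4 and 18.8 CPM, with -3.65 ± 0.28 and -3.82 ± 0.26. JAZ5 had 13.0, 21.4 and 10.8 CPM, with -3.20 ± 0.26 and -3.29 ± 0.24. No root library of these members reached a leaf library made without inhibitors. JAZ1, at 375, 470 and 254 CPM in root, was lower by 1.36 and 1.76 on the log2 scale.

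JAZ2 had 206, 307 and 163 CPM in root against 298, 241 and 199 CPM in palisade, overlapping groups with a log2 fold change of -0.16 ± 0.24 SE (edgeR FDR 0.56) that turned to 0.03 under upper-quartile scaling. Against the 359, 383 and 304 CPM of the reference libraries it was lower in root at less than 2-fold, with -0.68 ± 0.22 (FDR 0.013), although the libraries overlapped. JAZ4, the close relative of JAZ3 and JAZ9, was detected in root alone, with 7, 10 and 18 reads (0.15, 0.18 and 0.29 CPM) there and none in the 24 leaf libraries. Set against the floor of 3 counts in each library, its root mean was at least 1.40-fold higher than palisade and at least 1.51-fold higher than reference. JAZ8 had 3.60, 10.5 and 3.25 CPM in root, 1 library far above the others, and 1.05 ± 0.44 against palisade (FDR 0.041). Without that root library, replicate 2, the value was 0.31 with FDR 0.45, and without palisade replicate 1 or 3 the FDR was 0.084 or 0.17.

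In all, 4 of 10 members were called lower in root than in palisade, against 27.1% of 22467 genes, and 2 (JAZ4 and JAZ8) higher, against 38.2%. Against reference 6 were called lower, JAZ3 and JAZ7 in addition, where 27.4% of 22541 genes were, and 1 (JAZ4) higher, against 36.7%. JAZ4 met the count filter through its root libraries alone in both comparisons, so its higher calls are not read as results. The median over all genes was 0.38 and 0.32 on the log2 scale, and the members' median -0.59 and -1.29, which JAZ4 at its lower bound leaves the same. Of 13 jasmonate synthesis genes, 11 were called lower and 2 higher in root in both comparisons, LOX3 by -6.90 and -6.82. Of 9 wound and stress genes, 8 were lower and 0 higher in both. COI1 averaged 30.1 CPM in root and 23.1 CPM in palisade, a log2 fold change of 0.36 ± 0.17 SE (edgeR FDR 0.074). How far root and leaf differed in digestion was not tested. Root protoplasts were total ones of Col-0, while leaf cells were sorted from a reporter line. Organ, line, sorting and protoplast preparation cannot be told apart.

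Across the 9 group means the members fell into different patterns, given here as a description because groups share handling and line. On the scale of log2(CPM + 0.5), JAZ1, JAZ2, JAZ3 and JAZ10 had Pearson correlations of 0.98 to 0.99 with each other. JAZ9 had 0.90 with JAZ6 and 0.08 to 0.20 with those 4. Ordered by mean, JAZ1 ran from 1219 CPM in JR11-2 GFP-positive cells through 1199, 1035 and 920 CPM in the other leaf groups without inhibitors, neighbours that overlapped throughout, to 366 CPM in root, 156 and 101 CPM in reference and palisade after high light, and 46.5 and 44.0 CPM in the low light groups with inhibitors, of which only the last 2 overlapped. For JAZ9 the order began with palisade and reference after high light (517 and 478 CPM, overlapping) and ended with root (23.1 CPM). For JAZ8, overlaps ran without a break from root (5.78 CPM) through the 4 leaf groups without inhibitors to reference after high light (2.20 CPM).

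The 5 nuclear genes outside the family whose means followed the family's average most closely over the 9 groups, of 17032 with at least 1 CPM, were NAC032 (Pearson r 0.999), IAA16 (0.998), AT5G27760 (0.994), AT4G24160 (0.994) and MPK17 (0.992). NAC032 had 513 and 787 CPM in palisade and reference without inhibitors, 43.8 and 49.1 CPM with inhibitors in low light, 174 and 206 CPM after high light and 229 CPM in root.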

How the data were processed

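RNA of 27 protoplast samples was sequenced by the authors as stranded mRNA libraries with single-end reads. Per the labels and the methods of the study, reads were processed with CASAVA 1.8.2, aligned to TAIR10 with TopHat2 2.0.9 and assigned to genes with HTSeq 0.6.1 in strict intersection mode. The deposited values are raw read counts per gene, and reads on no gene row (6.95 to 12.5% of reads) and 279 organelle genes were left out here, which leaves 33323 nuclear genes.

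Genes with at least 2 counts in 3 of 6 libraries (6 of 12 for interactions) were tested with edgeR 4.0.16 in R 4.3.3 by the quasi-likelihood test with TMM scaling and Benjamini-Hochberg adjustment over all genes tested. Called genes had FDR under 0.05 and a fold-difference over 2; interactions were called on FDR alone. Palisade and reference libraries of 1 pool were paired by a pool block, since the labels give the pool, and their deviations correlated at 0.24 or more in every pair. Inhibitor, light and root comparisons had no block. P-values of fits with a pool block, interactions included, measure how the difference within pools varied from pool to pool. Those of the other fits measure the spread between pools of leaves or between root samples. Depth was 15074702 to 38792923 counts per library, and intervals cover counting error only.

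Alternatives were upper-quartile scaling, no filter, a minimum of 10 counts in every library, DESeq2 1.42.0, all 27 libraries in 1 fit, the block added or removed, and each library or pool left out. All 10 members were named whatever their values. Of the pathway lists, COI1, NINJA, MYC2 and, at most, the 3 genes of each list with the largest called inhibitor difference were named. JAZ11, JAZ12, MYC3, MYC4, ASK2 and HDA19 were named after their values were seen. So were the single markers CASP1, CER6, CORI3, FAMA, SCR, SHR, SLAC1, TGG1, WER and YAB5. Members and lists were chosen with earlier results of these data known.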

Additional observations from a re-analysis of the deposited data

Results flagged for a closer look

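The effect of high light differed between palisade and reference cells for JAZ1, by -0.65 ± 0.10 SE on the log2 scale (edgeR FDR 0.00038), and for JAZ5, by -0.59 ± 0.16 (FDR 0.036), both smaller in palisade. The difference between cell populations was itself unequal between the IQD22 line and JR11-2 for JAZ7, by -1.28 ± 0.25 (FDR 0.0012), for JAZ8, by -0.85 ± 0.23 (FDR 0.014), and for JAZ2, by -0.42 ± 0.11 (FDR 0.010). The reporter, the sorting gate and the line changed together between those lines and cannot be told apart.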

How the results depend on the processing

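Of 1189 alternative values of single members, 1104 kept their direction and their side of the limits, 41 lost a call, 19 gained one and 25 changed sign, none of these last a called value. For palisade against reference with inhibitors, the number of members called fell from 1 to 0 in low light and in high light with DESeq2, with all 27 libraries in 1 fit, with no replicate block and with a minimum of 10 counts, which removed JAZ7 and JAZ8 in low light and JAZ8 in high light from the test; with pools left out it was 0 to 1 in both. After high light in palisade the number was 2 to 7 with libraries left out. The inhibitor interaction went from 0 to 3 members with a minimum of 10 counts (7 tested) and to 1 with DESeq2, and was 0 to 4 with pools left out. The light interaction went from 2 to 1 with DESeq2 and 0 with no replicate block, and was 1 to 2 with pools left out. The line interaction went from 3 to 0 with no replicate block and was 1 to 5 with pools left out. The causes were not tested.

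Signs changed as follows, in log2 fold change, with ranges for libraries or pools left out. For palisade against reference with inhibitors in low light, all 27 libraries in 1 fit gave 0.0724 for JAZ1 and 0.0544 for JAZ9, and JAZ10 ranged from -0.20 to 0.35. In high light, JAZ6 was -0.0136 with a minimum of 10 counts and ranged from -0.0454 to 0.0377, and JAZ9 from -0.0218 to 0.0844. In JR11-2, JAZ8 ranged from -0.21 to 0.0528. In root against palisade, upper-quartile scaling gave 0.0327 for JAZ2 and 0.0950 for JAZ7, and the ranges were -0.45 to 0.0237 and -0.38 to 0.43. In root against reference, JAZ8 ranged from -0.59 to 0.48. In the inhibitor interaction, JAZ7 ranged from -0.0184 to 0.35 and JAZ8 from -0.28 to 0.78. In the light interaction, JAZ8 ranged from -0.52 to 0.98 and JAZ9 from -0.00825 to 0.21. In the line interaction, a minimum of 10 counts gave -0.00905 for JAZ5 and -0.0108 for JAZ6, upper-quartile scaling -0.000727 for JAZ6, and the ranges were -0.0830 to 0.13 and -0.00745 to 0.0365.

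The replicate block, tried in the inhibitor, light and root comparisons where the numbers share no pool, took the members called in root against palisade from 6 to 5 and changed no other number called in those comparisons. JAZ7 and JAZ8 with inhibitors in low light rest on 1 to 21 reads a library, which limits their fold changes.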
